A study of Danaus plexippus with 32 samples.

Results

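This section describes 4 genes of glycogen metabolism in the brain of the monarch butterfly, *Danaus plexippus*. *GlyS* (DPOGS214402) encodes glycogen synthase and *AGBE* (DPOGS215494) encodes the glycogen branching enzyme, whereas *GlyP* (DPOGS205027) encodes glycogen phosphorylase and *Pgm* (DPOGS209508) encodes phosphoglucose mutase. They were chosen by name and identifier from the enzymes that the study placed in this pathway, and are 4 of the 15130 genes in the expression files and of the 10412 genes counted as expressed, which reached 3 FPKM in 1 or more WT libraries. FPKM count sequenced fragments relative to transcript length and to the mapped reads of the library. All 4 genes passed this filter.

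Glycogen is the branched glucose polymer in which animals store sugar, and in nervous tissue it is held mainly in glia. Glycogen synthase lengthens the glucose chains and the branching enzyme adds the branch points, whereas glycogen phosphorylase releases glucose 1-phosphate from the chain ends. Phosphoglucose mutase interconverts glucose 1-phosphate and glucose 6-phosphate and thereby joins glycogen to glycolysis in both directions. The activity of the synthase and the phosphorylase is also set by phosphorylation, which RNA levels do not show.

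Brains free of eye photoreceptors were taken from *Clk* knockouts (Clk KO, lacking a functional circadian activator CLK), *Cry2* knockouts (Cry2 KO, lacking a functional circadian repressor CRY2) and wild-type monarchs (WT), all adults entrained for at least 7 days at 25 °C to 15 h of light and 9 h of darkness. Both knockouts were sampled at Zeitgeber Times ZT4, ZT10, ZT16 and ZT22 (hours after lights on) and WT also at ZT1, ZT7, ZT13 and ZT19. Each of the 32 RNA-seq libraries (8 Clk KO, 8 Cry2 KO and 16 WT) pooled 3 brains, with 2 replicates per genotype and time. Replicate 1 is labelled male and replicate 2 female throughout, so that sex and replicate number cannot be told apart, and in each pair of values at a time the female value precedes the male value. The sources used here do not say which libraries were sequenced together.

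Between 2848069 and 4456322 reads per library fell on genes, with a median of 3452440. The median log2 level of all expressed genes, relative to the WT mean, was between -0.35 and 0.05 in the 32 libraries. The lowest was that of the male Clk KO library at ZT4, which stood apart from the rest. All 5 nervous system genes examined were expressed in every library, and the glutamate transporter gene *VGlut* had between 66.3 and 123 FPKM. *Cry2* RNA had a mean of 22.9 ± 0.67 FPKM in Cry2 KO against 25.6 ± 5.37 FPKM in WT at the 4 shared times (SD, n = 8 each). This level does not check the knockout, since the RNA can persist when the protein is lost. *Clk* was not examined here, since the sources used here pair it with no identifier.

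The 4 genes lie on 4 scaffolds of assembly v3 and overlap no other annotated gene. *GlyS* spans positions 141799 to 150914 of scaffold DPSCF300069, and *GlyP* spans 137065 to 143043 of DPSCF300288. *Pgm* spans 54713 to 58316 of DPSCF300127. *AGBE* spans 560102 to 566073 of DPSCF300098, a scaffold that also carries 2 enzymes of glucose metabolism from the list of other pathway genes described further on. These are *Pfk-2/FBPase-2* (521397 to 530928), which makes and degrades an activator of phosphofructokinase, and *Gapdh2* (492933 to 493930), a glyceraldehyde 3-phosphate dehydrogenase. Between *AGBE* and *Pfk-2/FBPase-2* the annotation holds 3 further genes.

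The breakdown gene was the most abundant of the 4. In WT, *GlyP* averaged 152.6 ± 11.5 FPKM, *AGBE* 52.3 ± 7.10 FPKM, *Pgm* 44.8 ± 6.16 FPKM and *GlyS* 19.9 ± 2.66 FPKM (SD, n = 16). By mean WT level they ranked 705 (*GlyP*), 1933 (*AGBE*), 2246 (*Pgm*) and 4687 (*GlyS*) among the 10412 expressed genes. *GlyP* was the highest and *GlyS* the lowest in all 32 libraries. *AGBE* was above *Pgm* in 26 libraries and below it in 6, and the WT values of *AGBE* and *Pgm* overlapped. A *GlyP* value rested on 2213 to 3893 reads and a *GlyS* value on 221 to 455 reads. The half-width of the 95% interval given with each value, which covers counting error only, was 3.21% to 4.25% of the value for *GlyP*, 6.28% to 8.69% for *AGBE*, 9.01% to 11.8% for *Pgm* and 9.38% to 13.5% for *GlyS*.

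In WT, the mean RNA level of all 4 genes was highest at ZT4 or ZT7, in the light, and lowest at ZT16 or ZT19, in the dark. *AGBE* had 53.5 and 54.9 FPKM at ZT1, 59.5 and 54.6 at ZT4, 66.6 and 59.9 at ZT7, 56.7 and 52.5 at ZT10, 42.8 and 49.9 at ZT13, 45.8 and 41.3 at ZT16, 44.6 and 45.0 at ZT19, and 58.1 and 50.5 at ZT22. Both libraries of ZT7 were above both libraries of every other time, and the lowest 6 values came from ZT13, ZT16 and ZT19. *GlyS* had 20.6 and 19.995 FPKM at ZT1, 23.9 and 21.7 at ZT4, 24.01 and 21.0 at ZT7, 19.1 and 18.6 at ZT10, 18.3 and 17.2 at ZT13, 18.95 and 16.5 at ZT16, 17.9 and 16.0 at ZT19, and 24.8 and 19.3 at ZT22. The highest *GlyS* value was that of the female library at ZT22, whose male counterpart was close to the median of the series.

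*GlyP* had 155 and 148 FPKM at ZT1, 160 and 155 at ZT4, 167 and 169 at ZT7, 162 and 169 at ZT10, 149 and 152 at ZT13, 143 and 143 at ZT16, 136 and 128 at ZT19, and 156 and 148 at ZT22. Replicates of *GlyP* lay close together, and ZT7 and ZT10 stood above all other times. *Pgm* had 46.4 and 48.7 FPKM at ZT1, 50.6 and 43.1 at ZT4, 44.6 and 60.1 at ZT7, 50.3 and 48.1 at ZT10, 43.3 and 40.9 at ZT13, 38.7 and 38.1 at ZT16, 35.9 and 39.1 at ZT19, and 48.4 and 41.0 at ZT22. The ZT7 replicates of *Pgm* differed more than the means of any other 2 times. The plot of the members by time of day shows these values.

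**Figure D1:**
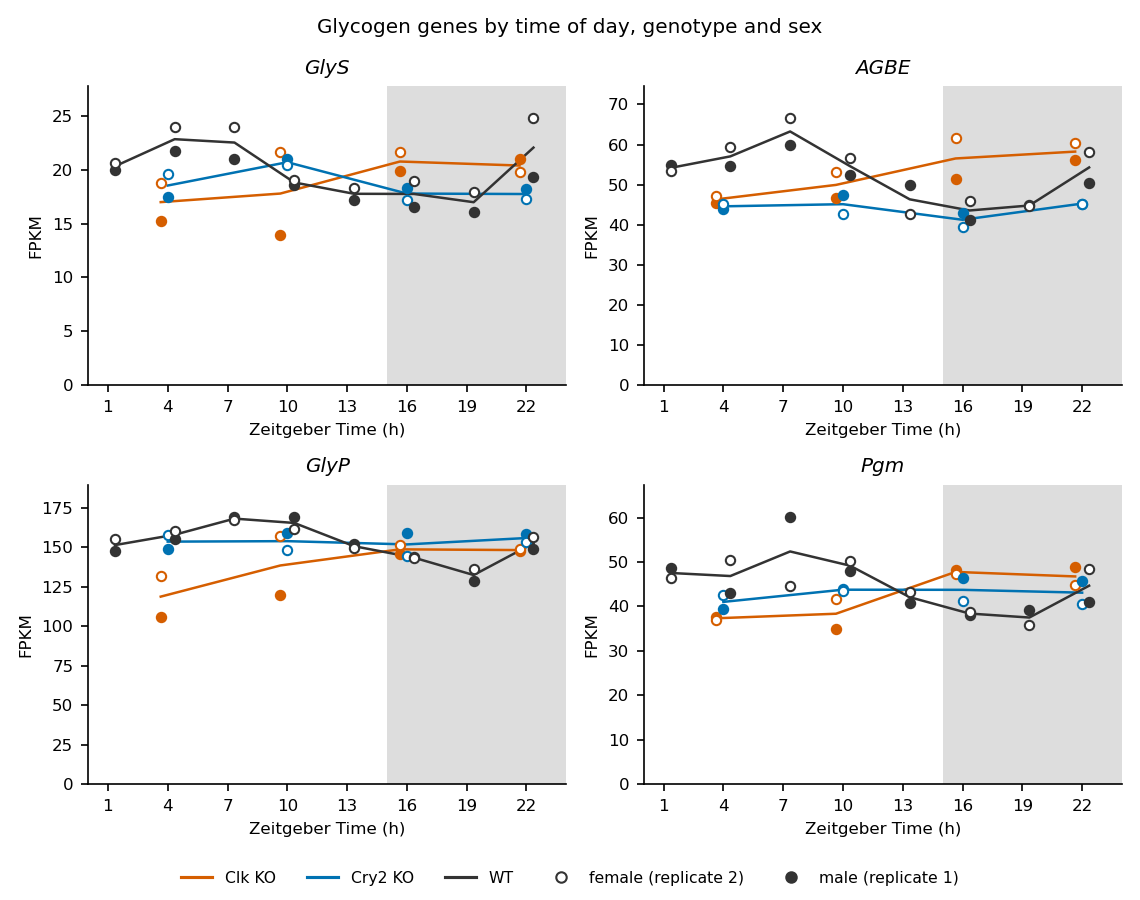
Expression (FPKM, linear axes from 0) of *GlyS*, *AGBE*, *GlyP* and *Pgm* against Zeitgeber Time in hours, with 1 point per library (open, female; filled, male), lines through the means of 2 libraries and the dark phase shaded. WT means are highest at ZT4 or ZT7 for all 4 genes, Cry2 KO varies least in *GlyP* (144 to 159 FPKM), with *GlyS* highest at ZT10, and Clk KO has lower means at ZT4 and ZT10 than in the dark (*GlyP* 106 FPKM in the male library at ZT4).

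To ask whether these profiles passed a test across all genes, a cosine and a sine of 24 h were fitted to log2(FPKM + 1) with limma, and rhythm was called where the adjusted p did not exceed 0.05 and the highest FPKM was 1.3 or more times the lowest. In WT 84 of 10412 genes (0.807%) were called, and 1 of the 4 members, *AGBE*. The study named all 4 genes among those it found rhythmic in these same libraries, so that the WT fits describe them and are no independent evidence. The fitted curve of *AGBE* spanned 0.45 ± 0.08 log2 units (SE) between trough and peak, with its peak at ZT4.83 (adjusted p = 0.0322). *GlyP* had a range of 0.26 ± 0.06 with its peak at ZT6.84 (adjusted p = 0.103), *Pgm* 0.40 ± 0.09 at ZT5.69 (adjusted p = 0.165) and *GlyS* 0.38 ± 0.09 at ZT3.67 (adjusted p = 0.205). The fitted peaks of the synthesis genes were ahead of that of the breakdown gene, with standard errors of 0.69 to 0.95 h, and the differences between peaks were not tested. The call of *AGBE* was lost in 11 of 16 fits that left out 1 library (adjusted p from 0.0538 to 0.0951) and kept without ZT1 female, ZT4 male, ZT13 male, ZT22 male or ZT22 female. Without the female ZT22 library, all 4 genes were called. Over the 16 fits, between 56 and 174 of all 10412 genes were called, beside 84 with every library.

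In Cry2 KO the fitted ranges of all 4 genes were smaller in value than in WT, a difference that was not itself tested. The interaction test given below, which takes range and peak time together, called no member. *AGBE* had 45.1 and 44.0 FPKM at ZT4, 42.8 and 47.5 at ZT10, 39.5 and 43.0 at ZT16, and 45.3 and 45.3 at ZT22. *GlyP* had 158 and 149 FPKM at ZT4, 148 and 159 at ZT10, 144 and 159 at ZT16, and 153 and 158 at ZT22. Neither gene had a time whose 2 libraries were both above the libraries of all other times. *Pgm* had 42.7 and 39.4 FPKM at ZT4, 43.6 and 44.0 at ZT10, 41.2 and 46.3 at ZT16, and 40.5 and 45.7 at ZT22, and *GlyS* had 19.6 and 17.4 at ZT4, 20.4 and 21.0 at ZT10, 17.2 and 18.3 at ZT16, and 17.3 and 18.2 at ZT22. *GlyS* was the exception, as both its ZT10 libraries were above the other 6. The fitted ranges were 0.22 ± 0.09 log2 units for *GlyS*, 0.11 ± 0.08 for *AGBE*, 0.03 ± 0.07 for *GlyP* and 0.09 ± 0.09 for *Pgm* (SE, n = 8), beside a median of 0.19 over all expressed genes. With limma 0 of 10412 genes (0%) were called in Cry2 KO, 467 of them having an unadjusted p under 0.05, and 0 of the 4 members had such a p.

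In Clk KO the mean levels as deposited of all 4 genes at ZT4 and ZT10, in the light, were below those at ZT16 and ZT22, in the dark. The median log2 level of all expressed genes, relative to the WT mean, was also low in both ZT4 libraries and the male ZT10 library. It was -0.11 and -0.35 at ZT4, 0.05 and -0.12 at ZT10, 0.03 and 0.01 at ZT16, and 0.05 and -0.02 at ZT22. *GlyP* had 131 and 106 FPKM at ZT4, 157 and 120 at ZT10, 151 and 146 at ZT16, and 149 and 147 at ZT22. *AGBE* had 47.3 and 45.4 FPKM at ZT4, 53.2 and 46.6 at ZT10, 61.5 and 51.5 at ZT16, and 60.3 and 56.2 at ZT22. The lowest value of *GlyP* and *AGBE* was that of the male library at ZT4, the one in which expressed genes in general were lowest. *Pgm* had 37.0 and 37.7 FPKM at ZT4, 41.7 and 35.03 at ZT10, 47.3 and 48.3 at ZT16, and 44.7 and 48.8 at ZT22, and *GlyS* had 18.8 and 15.2 at ZT4, 21.6 and 13.9 at ZT10, 21.6 and 19.9 at ZT16, and 19.8 and 21.0 at ZT22. As deposited, before the scaling of libraries described below, all 4 *Pgm* values of ZT16 and ZT22 were above the 4 of ZT4 and ZT10.

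The fitted Clk KO peaks were at ZT17.2 (*GlyP*), ZT18.5 (*GlyS*), ZT18.6 (*AGBE*) and ZT18.6 (*Pgm*), with ranges of 0.35 ± 0.16, 0.35 ± 0.20, 0.35 ± 0.12 and 0.45 ± 0.11 log2 units (SE, n = 8). The median range of all expressed genes in Clk KO was 0.34. With limma 1 of 10412 genes (0.00960%) was called in Clk KO, and it was none of the 4 members (adjusted p from 0.559 to 0.588). When libraries were scaled by the median of ratios, the Clk KO ranges were 0.16 ± 0.15 (*GlyS*), 0.16 ± 0.10 (*AGBE*), 0.07 ± 0.08 (*GlyP*) and 0.24 ± 0.12 (*Pgm*) and the median of all genes was 0.20. Without the male ZT4 library and with this scaling, a fit added after seeing the data, they were between 0.06 and 0.32.

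**Figure D2:**
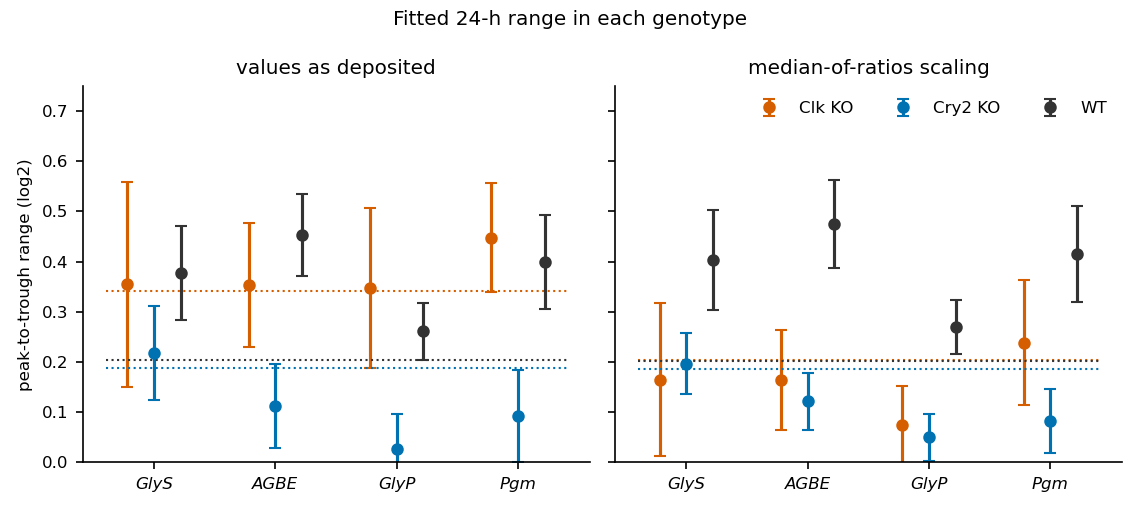
Fitted peak-to-trough range of a 24-h curve (log2 units) for the 4 genes in Clk KO, Cry2 KO and WT, with standard errors (truncated at 0) and the median of all expressed genes as dotted lines, for values as deposited (left) and after median-of-ratios scaling (right). The Clk KO ranges of 0.35 to 0.45 fall to between 0.07 and 0.24 with scaling, whereas the WT ranges stay between 0.26 and 0.47.

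Whether a knockout profile differed from the WT profile was tested as the interaction of genotype with the cosine and sine, over 8 knockout and 16 WT libraries. The 2 tests share the WT libraries. For Cry2 KO 15 of 10412 genes (0.144%) were called and 0 of the 4 members. An unadjusted p under 0.05 was reached by 473 of all genes and by all 4 members (limma). With the shared times only, over 16 libraries, it was reached by 402 of all genes and by 1 member. As the study named the members as rhythmic in these WT libraries, a smaller range in a knockout is not independent of their choice. The range in Cry2 KO was smaller than in WT by 0.34 ± 0.13 log2 units for *AGBE*, 0.31 ± 0.15 for *Pgm*, 0.24 ± 0.09 for *GlyP* and 0.16 ± 0.15 for *GlyS* (SE). These differences in range were not themselves tested. The interaction test, which takes range and peak time together, gave the members an adjusted p from 0.948 to 0.979 (limma). For Clk KO 869 of all genes and all 4 members had an unadjusted p under 0.05 (limma). With the shared times only, 378 of all genes and 2 members had such a p. Of 10412 genes 21 (0.202%) were called for Clk KO, and 1 of the 4 members, *Pgm* (adjusted p = 0.0486). *AGBE* was just over the threshold (adjusted p = 0.05004), followed by *GlyP* (0.214) and *GlyS* (0.430). The range of *Pgm* was 0.45 ± 0.13 in Clk KO and 0.40 ± 0.09 in WT, with peaks at ZT18.6 in Clk KO and ZT5.69 in WT. This call was kept in 4 of 24 fits that left out 1 library (WT ZT4 male, ZT7 female or ZT22 female, or Clk KO ZT10 female), and was lost with median-of-ratios scaling (adjusted p = 0.685), which also turned the difference in range to -0.18.

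Levels were then compared over the 4 shared times, with time as a factor. As deposited, *AGBE*, which branches the chains, was the only member called, in Cry2 KO against WT and in Clk KO against Cry2 KO. It ranged from 39.5 to 47.5 FPKM in Cry2 KO (median 44.6), against 41.3 to 59.5 FPKM in WT (median 53.6). Cry2 KO was lower in 7 of 8 libraries matched by time and sex, and the 2 groups overlapped. The log2 fold change was -0.24 ± 0.05 (SE, limma, adjusted p = 0.0158), and *AGBE* fell by 15.9% in mean FPKM. Of 10412 genes, 990 (9.51%) were called in this comparison, 109 higher and 881 lower, so that Cry2 KO values were low for genes in general (median log2 fold change -0.08). After median-of-ratios scaling *AGBE* was at -0.16 ± 0.06 and no longer called (adjusted p = 0.151). In all 16 fits that left out 1 library the call held.

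The other 3 genes were close to WT in Cry2 KO. *GlyP* ranged from 144 to 159 FPKM in Cry2 KO (median 156) and from 143 to 169 FPKM in WT (median 156), with a log2 fold change of -0.01 ± 0.04 (adjusted p = 0.917). *GlyS* had a log2 fold change of -0.11 ± 0.08 (adjusted p = 0.372) and *Pgm* of -0.05 ± 0.07 (adjusted p = 0.626). With median-of-ratios scaling the values of *GlyP* and *Pgm* were above 0, at 0.07 ± 0.04 and 0.03 ± 0.07.

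In Clk KO 0 of the 4 members were called against WT, where 360 of 10412 genes (3.46%) were called. An unadjusted p under 0.05 was reached by 2075 of all genes and by 0 of the members (limma). *GlyP* ranged from 106 to 157 FPKM in Clk KO (median 147), against 143 to 169 FPKM in WT (median 156), and was lower in 6 of 8 matched libraries. Its log2 fold change was -0.17 ± 0.08 (adjusted p = 0.252). *AGBE* ranged from 45.4 to 61.5 FPKM in Clk KO (median 52.4), against the same WT libraries, with a log2 fold change of 0.01 ± 0.09 (adjusted p = 0.957). *GlyS* was at -0.10 ± 0.11 (adjusted p = 0.616) and *Pgm* at -0.07 ± 0.09 (adjusted p = 0.681).

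The 2 knockouts were also compared with each other, which uses no WT library. *AGBE* was higher in Clk KO than in Cry2 KO, by 0.25 ± 0.06 log2 units (limma, adjusted p = 0.0483), and in 7 of 8 matched libraries. *GlyP* was lower in Clk KO in 6 of 8 matched libraries, by -0.16 ± 0.07 (adjusted p = 0.241). *GlyS* (0.01 ± 0.09) and *Pgm* (-0.02 ± 0.06) had values near 0. Of 10412 genes 396 (3.80%) were called, 248 higher and 148 lower in Clk KO. After median-of-ratios scaling *AGBE* was at 0.23 ± 0.04 (adjusted p = 0.00638) and *GlyP* at -0.18 ± 0.03 (adjusted p = 0.00486), so that both were called, in opposite directions. With this scaling 869 of all 10412 genes were called, 432 higher and 437 lower in Clk KO. As deposited, the call of *AGBE* was lost in 13 of 16 fits that left out 1 library (adjusted p from 0.0510 to 0.101) and kept without the Cry2 KO ZT4 female, Clk KO ZT4 male or Clk KO ZT10 male library.

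**Figure D3:**
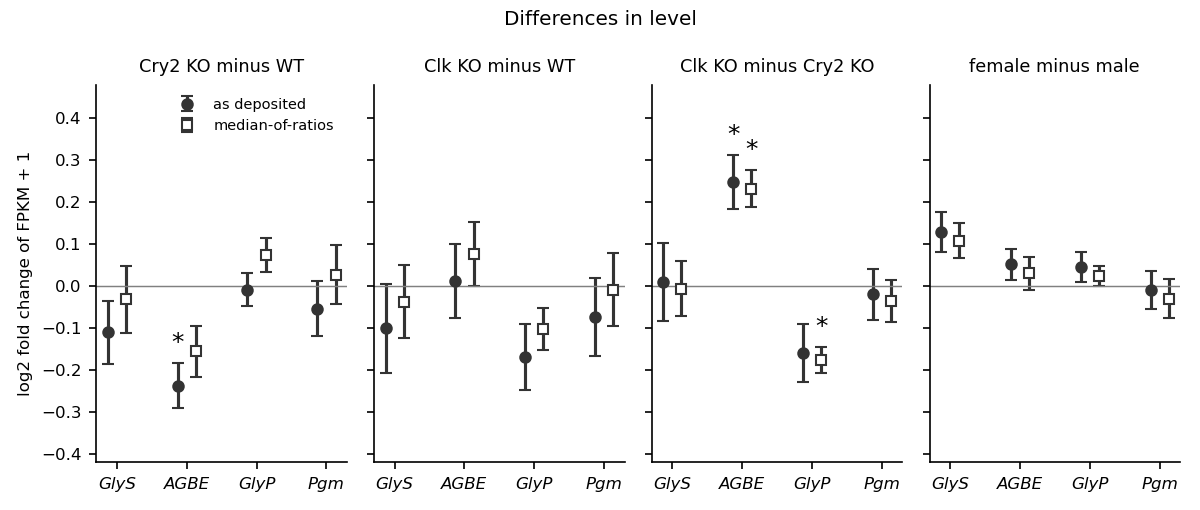
Log2 fold change of FPKM + 1 with its standard error for the 4 genes in 4 comparisons, as deposited (filled circles) and after median-of-ratios scaling (open squares), with an asterisk for an adjusted p of 0.05 or less. *AGBE* is at -0.24 in Cry2 KO minus WT and at 0.25 in Clk KO minus Cry2 KO, and *GlyP* is at -0.16 in Clk KO minus Cry2 KO, with an asterisk after scaling.

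The ratio of a synthesis gene to the breakdown gene in the same library does not depend on how the library was scaled. It shows unequal change of the 2 genes, not which of them changed. Ratios were compared with exact permutation tests of the log2 ratio, in which genotype labels were exchanged within each time in all 1296 ways, and p-values were adjusted over 14 tests (2 ratios in 7 comparisons).

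The *AGBE*/*GlyP* ratio separated the knockouts from each other, with WT overlapping both. In Clk KO it was 0.360 and 0.429 at ZT4, 0.340 and 0.389 at ZT10, 0.407 and 0.353 at ZT16, and 0.405 and 0.382 at ZT22. In Cry2 KO it was 0.286 and 0.295 at ZT4, 0.288 and 0.298 at ZT10, 0.274 and 0.270 at ZT16, and 0.295 and 0.286 at ZT22. All 8 Clk KO libraries were above all 8 Cry2 KO libraries. In WT at the same times it was 0.371 and 0.352 at ZT4, 0.351 and 0.311 at ZT10, 0.320 and 0.288 at ZT16, and 0.372 and 0.340 at ZT22. The median of these WT libraries (0.345) lay between those of Clk KO (0.385) and Cry2 KO (0.287), WT and Clk KO overlapped between 0.340 and 0.372, and the male WT library at ZT16 lay inside the Cry2 KO range.

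The mean log2 *AGBE*/*GlyP* ratio was lower in Cry2 KO than in WT by 0.23, as the difference of -1.80 ± 0.05 in Cry2 KO and -1.57 ± 0.13 in WT (SD, n = 8 each, exact permutation test, two-sided, p = 0.00154, adjusted p = 0.0108). This is the smallest p that 1296 exchanges allow, and Cry2 KO was lower in all 8 matched libraries. Between Clk KO (-1.39 ± 0.12) and Cry2 KO the difference was 0.41, a ratio 1.33 times as high in Clk KO (exact permutation test, p = 0.00154, adjusted p = 0.0108), and it was 0.43 in males and 0.40 in females. Between Clk KO and WT the difference was 0.18 (exact permutation test, p = 0.0123, adjusted p = 0.0247), with Clk KO higher in 6 of 8 matched libraries. This difference was 0.27 in males and 0.09 in females, and its adjusted p was 0.0513 without the male WT library at ZT4. Both other differences kept their call without each library in turn.

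The *GlyS*/*GlyP* ratio differed less. It ranged from 0.116 to 0.144 in Clk KO (median 0.140), from 0.113 to 0.138 in Cry2 KO (median 0.118) and from 0.110 to 0.159 in WT at the shared times (median 0.131). The log2 ratio was higher in Clk KO than in Cry2 KO by 0.17, in 7 of 8 matched libraries (exact permutation test, p = 0.0154, adjusted p = 0.0270), and the ranges overlapped. This call was lost without the female Clk KO library at ZT10 (adjusted p = 0.113) or the male Cry2 KO library at ZT10 (adjusted p = 0.0729). Against WT, the difference was -0.11 in Cry2 KO (exact permutation test, adjusted p = 0.298) and 0.06 in Clk KO (exact permutation test, adjusted p = 0.373).

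**Figure D4:**
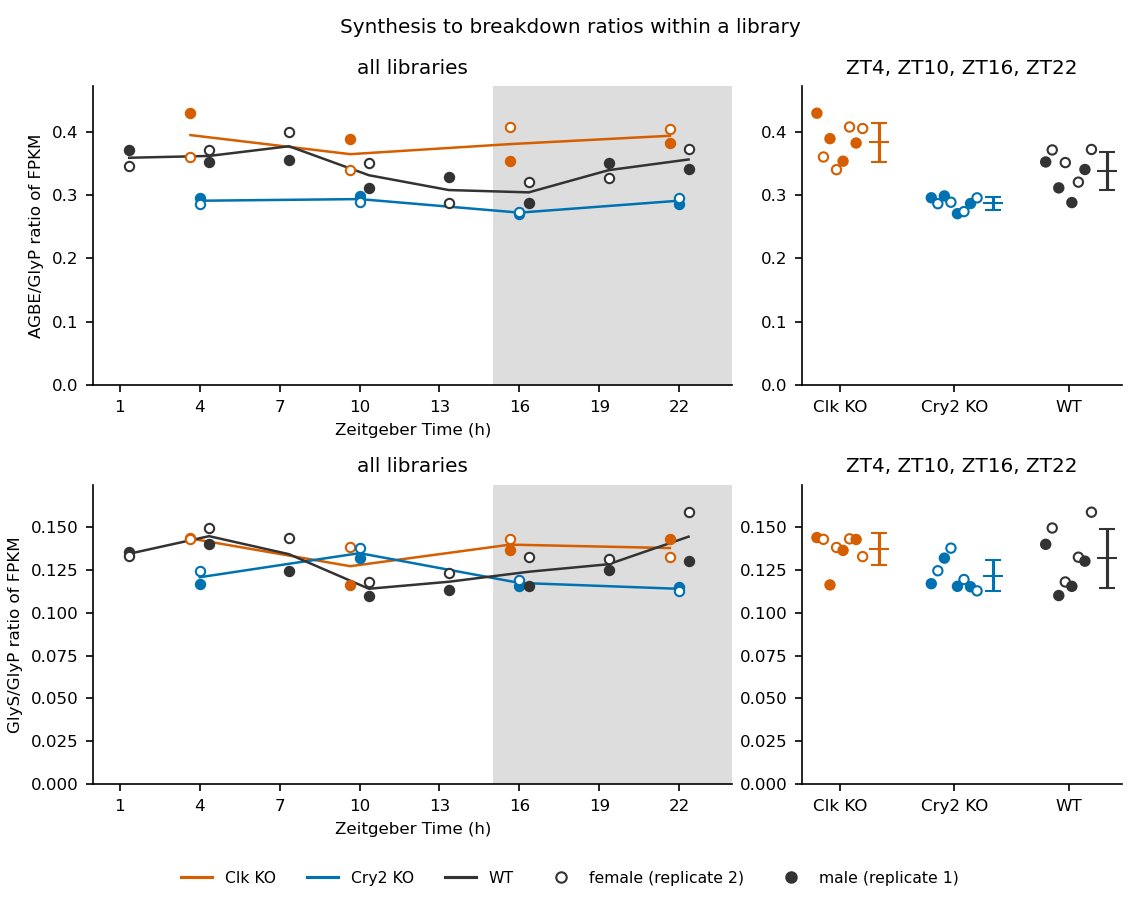
Ratio of *AGBE* to *GlyP* (top) and of *GlyS* to *GlyP* (bottom) in FPKM (linear axes from 0), 1 point per library (open, female; filled, male), against Zeitgeber Time in hours with lines through the means of 2 libraries (left) and by genotype at the 4 shared times with mean ± SD beside the points (right). For *AGBE*/*GlyP* all Clk KO points (0.340 to 0.429) are above all Cry2 KO points (0.270 to 0.298).

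In WT both ratios also varied with time of day. The *AGBE*/*GlyP* ratio was 0.346 and 0.371 at ZT1, 0.371 and 0.352 at ZT4, 0.399 and 0.355 at ZT7, 0.351 and 0.311 at ZT10, 0.287 and 0.328 at ZT13, 0.320 and 0.288 at ZT16, 0.327 and 0.351 at ZT19, and 0.372 and 0.340 at ZT22. It was thus high from ZT22 to ZT7 and low at ZT13 and ZT16. The fitted range was 0.27 log2 units with a peak at ZT2.87 (100000 permutations of the times over 16 libraries, p = 0.00441, adjusted p = 0.0154). The *GlyS*/*GlyP* ratio had a fitted range of 0.29 with a peak at ZT0.90 (permutation test, p = 0.00776, adjusted p = 0.0217). Its mean log2 value was highest at ZT4 (-2.79) and lowest at ZT10 (-3.13). As the WT libraries served the study to name these genes, these 2 results are not independent of their choice.

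In the knockouts, time orders were permuted exactly over 8 libraries. The *AGBE*/*GlyP* range was 0.10 in Cry2 KO (exact permutation test, adjusted p = 0.298) and 0.12 in Clk KO (exact permutation test, adjusted p = 0.680). The *GlyS*/*GlyP* range was 0.13 in Clk KO (exact permutation test, adjusted p = 0.680). In Cry2 KO it was 0.25 with a peak at ZT9.38 (exact permutation test, p = 0.00952, adjusted p = 0.0222), where both ZT10 libraries, at 0.138 and 0.132, were above the other 6. This call was lost without any 1 of 4 libraries, the female ZT10 (adjusted p = 0.0667), female ZT16 (0.111), male ZT22 (0.0611) and female ZT22 (0.139) libraries. Whether the time courses of the ratios differ between genotypes was not tested.

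Males and females were compared over all 32 libraries with genotype and time as a joint factor. None of the 4 members was called, where 372 of 10412 genes (3.57%) were. An unadjusted p under 0.05 was reached by 1658 of all genes and by 1 of the 4 (limma). That gene was *GlyS*, which averaged 20.2 ± 2.39 FPKM in females and 18.5 ± 2.29 FPKM in males (SD, n = 16 each). The log2 fold change was 0.13 ± 0.05 (adjusted p = 0.164), and the female value was the higher in 12 of 16 pairs. These were 3 of 4 pairs of Clk KO, 1 of 4 of Cry2 KO and 8 of 8 of WT. *AGBE* was at 0.05 ± 0.04 (adjusted p = 0.544), *GlyP* at 0.05 ± 0.04 (adjusted p = 0.607) and *Pgm* at -0.01 ± 0.05 (adjusted p = 0.950). Within a genotype 0 of the 4 members were called (limma), against 119 of all genes (1.14%) in WT, 0 (0%) in Cry2 KO and 0 (0%) in Clk KO, where 1429, 703 and 1345 genes had an unadjusted p under 0.05. A test of sex by genotype called 0 of 10412 genes (0%), with 1042 at an unadjusted p under 0.05, and the adjusted p of the members was between 0.487 and 0.918.

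The *GlyS*/*GlyP* ratio was higher in females than in males by 0.09 log2 units, a ratio 1.06 times as high, in 12 of 16 pairs (exact permutation test over sign flips, p = 0.00397, adjusted p = 0.0154). Its mean log2 value was -2.88 ± 0.14 in females and -3.01 ± 0.13 in males of WT (SD, n = 8 each), -3.02 ± 0.12 and -3.06 ± 0.09 of Cry2 KO, and -2.85 ± 0.05 and -2.90 ± 0.14 of Clk KO (n = 4 each). For *AGBE*/*GlyP* the difference was 0.01 (exact permutation test, adjusted p = 0.849), with females higher in 9 of 16 pairs.

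A list of 14 other genes was set beside the 4 members. All but *Gbs-70E* and *Gbs-76A* are genes that the study placed in this pathway. *Gbs-70E* and *Gbs-76A*, added to the list here, encode glycogen-targeting subunits of protein phosphatase 1, which in *Drosophila* bring the phosphatase to glycogen synthase. In WT 5 of the 14 were called rhythmic, where 84 of 10412 genes (0.807%) were. They were led by the trehalose transporter genes *Tret1-2* (range 1.59 ± 0.17, adjusted p = 0.000244) and *Tret1-1* (1.39 ± 0.23, adjusted p = 0.0150) and by *Pgi*, phosphoglucose isomerase (0.47 ± 0.07, adjusted p = 0.00831). *Gbs-76A* had a range of 0.58 ± 0.12 with its peak at ZT4.07 (adjusted p = 0.0723) and *Gbs-70E* of 0.68 ± 0.19 at ZT8.11 (adjusted p = 0.307). The median range of the list was 0.47, that of the 4 members 0.39 and that of all expressed genes 0.20. All 14 are among the genes the study listed as rhythmic from the WT libraries. In each knockout 0 of the 14 were called rhythmic, and 0 had an unadjusted p under 0.05 (limma), beside 467 of all genes in Cry2 KO and 782 in Clk KO. The interaction test called 0 of the 14 in Cry2 KO and 1 in Clk KO, where 15 and 21 of 10412 genes were called. The gene called was *Pgi* (adjusted p = 0.0486), a call lost in 19 of 24 fits that left out 1 library. In this test 7 of the 14 in Cry2 KO and 9 in Clk KO had an unadjusted p under 0.05, beside 473 and 869 of all genes (limma).

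In level, 1 of the 14 fell in Cry2 KO and 0 rose, no larger a share than the 9.51% of all genes called. It was *Tps1*, which makes trehalose 6-phosphate (-0.19 ± 0.05, adjusted p = 0.0443), a call lost with median-of-ratios scaling (adjusted p = 0.333). In Clk KO 2 of the 14 fell and 0 rose against WT, where 3.46% of all genes were called. *Tps1* ranged from 80.7 to 112 FPKM in Clk KO (median 100.3), against 108 to 146 FPKM in WT (median 126), and changed by -0.35 ± 0.07 (adjusted p = 0.0241). *Tret1-1* changed by -1.12 ± 0.25 (adjusted p = 0.0278) and rested on as few as 1 read. Against Cry2 KO, Clk KO was lower for *Pdk*, the pyruvate dehydrogenase kinase gene (-0.35 ± 0.08, adjusted p = 0.0231) and *Pfk-2/FBPase-2* (-0.20 ± 0.05, adjusted p = 0.0399). None of the 14 was called higher, where 3.80% of all genes were called. With median-of-ratios scaling 3 of the 14 were called, all lower, adding *Tps1* (-0.17 ± 0.04, adjusted p = 0.0107), where 869 of 10412 genes were called. As deposited and with 1 library left out at a time, the call of *Pfk-2/FBPase-2* was lost in 12 of 16 fits and that of *Tret1-1* in 5. The call of *Tps1* in Cry2 KO against WT was lost in 11, and those of *Pdk* and of *Tps1* in Clk KO against WT in 3 each. *Gbs-70E* averaged 20.3 ± 4.55 FPKM in Clk KO, 23.2 ± 4.87 FPKM in Cry2 KO and 28.0 ± 4.85 FPKM in WT at the shared times, with adjusted p-values of 0.0733 and 0.194 against WT. *Gbs-76A* averaged 24.9 ± 3.78, 24.1 ± 1.95 and 21.6 ± 3.36 FPKM in the same order, and neither knockout passed the test. Between females and males 0 of the 14 were called, where 3.57% of all genes were, and 10 of the 14 and 1658 of all 10412 genes had an unadjusted p under 0.05 (limma). With median-of-ratios scaling 6 of the 14 had such a p and 1 was called, *Tpi*, which encodes triosephosphate isomerase (-0.16 ± 0.04, adjusted p = 0.0381), a gene named after its values were seen. With this scaling 1682 of all 10412 genes had such a p and 418 were called.

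The likeness of profiles was described by Pearson's r over libraries of log2(FPKM + 1), less the library's median over expressed genes. Libraries share times, genotypes and depth, so that r is given as a description only. In the 16 WT libraries r was 0.86 between *AGBE* and *GlyS*, 0.85 between *AGBE* and *GlyP* and 0.84 between *GlyP* and *Pgm*. It was 0.78 between *AGBE* and *Pgm*, 0.75 between *GlyS* and *GlyP* and 0.65 between *GlyS* and *Pgm*. As the study named the members as rhythmic in these WT libraries, likeness there is not independent of their choice. Over all 32 libraries r between *AGBE* and *GlyP* was 0.29, whereas *AGBE* and *GlyS* had 0.66 and *GlyP* and *Pgm* 0.65. The other pairs had 0.61 (*GlyS* and *Pgm*), 0.59 (*GlyS* and *GlyP*) and 0.59 (*AGBE* and *Pgm*). Among the 2 expressed genes most like each member over 32 libraries were *CG7582* for *GlyS* (r = 0.79) and for *Pgm* (0.71), *Oatp74D*, an organic anion transporter gene, for *AGBE* (0.77), and *uzip* (0.84) and *CG7888* (0.82) for *GlyP*. *Papss*, the PAPS synthetase gene, was second for *Pgm* (0.69). The first gene for *AGBE* and the second for *GlyS* have no name in the sources used here. *Pfk-2/FBPase-2* and *Gapdh2*, on the scaffold of *AGBE*, had r of 0.41 and 0.52 with it.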

How the data were processed

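Members, lists and tests were chosen with earlier results of these data known. Libraries were sequenced as 50-bp single-end reads, which the authors aligned to monarch assembly v3 with TopHat2. The deposited FPKM come from Cufflinks, 1 value per gene and library with a 95% interval, and the study calls its unit RPKM. CASAVA 1.8.2 is listed in the submitters' processing notes. As the deposited values are no counts, a count model was not used. Reads behind a value were taken from its interval, and 82.5% of values under 30 reads came within 0.05 of a whole number.

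Tests used limma 3.58.1 in R 4.3.3 on log2(FPKM + 1), which understates changes of low genes, with an intensity trend and Benjamini-Hochberg adjustment over 10412 expressed genes. RAIN, MetaCycle and DODR, which the study used, were not installed. Ratios were tested by permutation in Python 3.11.15 with numpy 2.4.6 and pandas 2.3.3, and figures drawn with matplotlib 3.10.9. The fits were tested on simulated data. Named were the 4 members, *Gbs-70E*, *Gbs-76A*, at most 3 more list genes per comparison that passed its test, by size of change, and 2 genes most like each member. Alternatives were another pseudocount, filter, scaling, trend or time term, a replicate block, and each library left out. No identifiers matched the gene table at hand, and no sequences are shown.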

Additional observations from a re-analysis of the deposited data

Results flagged for a closer look

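The *AGBE*/*GlyP* ratio differed between the knockouts by 0.41 log2 units (Clk KO minus Cry2 KO), with the mean of Clk KO above and that of Cry2 KO below that of WT, and the *GlyS*/*GlyP* ratio by 0.17 (exact permutation tests, adjusted p = 0.0108 and 0.0270). *AGBE* alone differed by 0.25 (limma, adjusted p = 0.0483), a call lost in 13 of 16 fits that left out 1 library, and also with no filter, the stricter filter, no intensity trend or the replicate block (adjusted p = 0.0507). The *AGBE* call was kept with a pseudocount of 0.1, median-of-ratios scaling, quantile normalization, and median-of-ratios scaling without Clk KO ZT4 replicate 1. The time course of *Pgm* was called as different between Clk KO and WT (limma, adjusted p = 0.0486), with fitted ranges 0.049 log2 units apart and fitted peaks at ZT18.6 in Clk KO and ZT5.69 in WT. This call was absent in 20 of 24 fits that left out 1 library and with median-of-ratios scaling (adjusted p = 0.685, difference in range -0.18).

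In 1 of 18 groups of 8 libraries, 1 library lay far from the others. The male Clk KO library at ZT10 had a log2 *GlyS*/*GlyP* ratio of -3.11, where the gap to the next library was 0.62 of the group's range (critical value 0.526). Chance marks about 1 in 20 groups.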

How the results depend on the processing

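The direction and call of both *AGBE*/*GlyP* differences that involve Cry2 KO held under each alternative run. Single genes depended more on scaling and on single libraries, and the causes were not tested. Alternatives that scale by the median of ratios and leave out WT ZT22 replicate 2 or Clk KO ZT4 replicate 1 were chosen after seeing the data. Read depth limits *GlyS* most. Replicate differences over all expressed genes were little correlated between groups, with a median of 0.03 over 120 pairs of groups (-0.12 to 0.17, 14 over 0.1). This does not show that no gene shared a replicate difference, as female minus male called 372 of 10412 genes. With the replicate block 2 members were called in the Clk KO interaction (*AGBE*, adjusted p = 0.0259, and *Pgm*, 0.0443) and 0 in Clk KO over Cry2 KO level (*AGBE*, 0.0507), and the call of no other member changed. With this block 33 of 10412 genes were called in the Clk KO interaction and 462 in Clk KO over Cry2 KO level, beside 21 and 396 without it. Of the 4 members, wild-type rhythm was called for 2 with quantile normalization, 0 with time as a factor and 3 with median-of-ratios scaling without WT ZT22 replicate 2, which also called 1 member, *GlyP*, in each interaction (adjusted p = 0.0180 in Cry2 KO and 0.0388 in Clk KO, where *Pgm* was no longer called, 0.175). Of 10412 genes, wild-type rhythm was called for 96, 37 and 194 in the same order, beside 84 in the main fit. The last setting called 28 of all genes in the Cry2 KO interaction and 29 in the Clk KO interaction. The Clk KO interaction was called for 2 members with a pseudocount of 0.1 or no filter, and for 0 with an FPKM of at least 1 in every library, either scaling, no intensity trend, shared times only, or median-of-ratios scaling without Clk KO ZT4 replicate 1. Of all genes it was called for 23 with the pseudocount and 24 with no filter, and for between 1 (shared times only) and 21 (no intensity trend) in the others. In Cry2 KO level 0 members were called with either scaling or median-of-ratios scaling without WT ZT22 replicate 2, where between 549 and 967 of 10412 genes were called. In Clk KO over Cry2 KO level 0 were called with no filter, the stricter filter or no trend, and 2 with either scaling or median-of-ratios scaling without Clk KO ZT4 replicate 1. Of all genes, between 387 and 444 were called in the former and between 832 and 869 in the latter. Signs turned with median-of-ratios scaling, quantile normalization, and median-of-ratios scaling without Clk KO ZT4 replicate 1 or WT ZT22 replicate 2: in the Clk KO interaction *GlyP* was at -0.20, -0.18, -0.21 and -0.23 and *Pgm* at -0.18, -0.17, -0.092 and -0.21. With the first, second and last of these, Cry2 KO level was 0.074, 0.093 and 0.086 for *GlyP* and 0.027, 0.041 and 0.057 for *Pgm*, and with the last it was 0.025 for *GlyS*. Clk KO level was 0.0034 for *Pgm* with quantile normalization, and 0.014 for *Pgm* and 0.0082 for *GlyS* with the last. With the first 3, Clk KO over Cry2 KO level was -0.0059, -0.0035 and -0.0050 for *GlyS*. Female minus male within Cry2 KO was -0.0075 for *GlyS*, -0.058 for *AGBE*, -0.050 for *GlyP* and -0.15 for *Gbs-76A*, and for *Pgm* it was 0.0022 within WT and 0.017 within Clk KO. The geometric mean of *GlyS* and *AGBE* over *GlyP*, in place of *GlyS*/*GlyP*, gave -0.17 for Cry2 KO minus WT (exact permutation test, adjusted p = 0.0360), 0.12 for Clk KO minus WT (0.0405), 0.048 for female minus male (0.0795) and 0.14 for the Cry2 KO time course (0.0533). Medians in place of means give no time course. With 1 library left out at a time, 0 to 4 members were called in wild-type rhythm, 0 to 3 in the Clk KO interaction and 0 to 1 in Clk KO over Cry2 KO level. Of all genes, 56 to 174, 9 to 56 and 265 to 723 were called in the same order. The Clk KO interaction then lay between -0.15 and 0.0093 for *AGBE*, -0.53 and 0.044 for *Gbs-70E*, -0.064 and 0.19 for *GlyP*, -0.10 and 0.16 for *GlyS*, and -0.014 and 0.12 for *Pgm*. Clk KO level of *AGBE* lay between -0.044 and 0.050 and Cry2 KO level of *GlyP* between -0.029 and 0.0093. Clk KO over Cry2 KO level lay between -0.025 and 0.087 for *Gbs-76A*, -0.022 and 0.087 for *GlyS*, and -0.048 and 0.018 for *Pgm*. Female minus male lay between -0.026 and 0.018 for *Pgm* and between -0.0063 and 0.024 for *AGBE*/*GlyP*. Clk KO minus WT lay between 0.15 and 0.21 for *AGBE*/*GlyP*, Clk KO minus Cry2 KO between 0.14 and 0.20 for *GlyS*/*GlyP*, and the Cry2 KO time course of *GlyS*/*GlyP* between 0.20 and 0.28. *Tret1-1* gave no Clk KO level under the stricter filter.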
